A study of Mus musculus with 21 samples.

Results

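Paired receptors of the LILR, PIR and PILR families were examined in microglia, the resident macrophages of the brain. The members were the rows of the count table whose Ensembl identifier maps to a protein-coding mouse symbol beginning Lilr, Pilr, Pira or Pirb and whose counts sum to at least 100 over all libraries. Of 55487 rows, 9 carried such a symbol and 8 of them met the minimum: Lilrb4a, Lilr4b, Pirb, Pira2, Lilra5, Pilra, Pilrb1 and Pilrb2. Pira2 lay just inside the minimum, with a summed count of 231, and Lilra6 just outside it, with 56.0. The other 7 members had summed counts of 1332 (Pilrb2) to 36497 (Lilrb4a).

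Leukocyte immunoglobulin-like receptors (LILR), their mouse relatives the paired immunoglobulin-like receptors (PIR) and the separate family of paired immunoglobulin-like type 2 receptors (PILR) sit on myeloid cells in activating and inhibitory versions. Inhibitory members carry tyrosine motifs in their cytoplasmic tail, called ITIMs, which recruit the phosphatases SHP-1 and SHP-2. Activating members have short tails and signal through adaptors with an activating tyrosine motif, FcR-gamma (gene Fcer1g) for PIR-A and DAP12 (gene Tyrobp) for PILR-beta. Lilrb4a encodes gp49B, Pirb encodes PIR-B and Pilra encodes PILR-alpha, all inhibitory, and Lilr4b encodes gp49A, the close relative of gp49B. On neural cells, PIR-B is known as a receptor for nerve growth inhibitors, besides its binding to class I major histocompatibility proteins.

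The cells came from the striatum of male mice aged 8 to 10 weeks and had been sorted as live, CD11b+, CD45-low and P2RY12+ cells. The mice were offspring of dams with maternal immune activation (MIA) or of control dams, and were collected 18 hours after 1 intraperitoneal injection of lipopolysaccharide (LPS, 4500 endotoxin units per gram of body weight) or saline. What activated the dams' immune system, the mouse strain and which animals shared a litter are not stated in the labels or series text. The groups were MIA LPS (4 libraries), MIA saline (6), control LPS (5) and control saline (6), and the study asks whether prenatal immune stress alters how adult microglia react. P-values measure the spread between these libraries, since nothing states how the animals were related.

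The submitters titled MIA saline replicate 6 as excluded, and it enters no result. MIA LPS replicate 4 was the only library of batch 2, so the batch term took it up and its values are given apart. The other 19 libraries held 9845792 to 18990010 estimated counts, of which 46.2 to 55.9% lay in ribosomal RNA genes. In MIA LPS replicate 2, the second principal component (6.86% of the variance) was -83.2, against -17.9 to 30.8 in the other 18 libraries of batch 1. That library also had summed astrocyte markers of 225 CPM (counts scaled to a common library size) against 130 and 135 CPM in the other MIA LPS libraries of batch 1, so each member is also given without it. All 13 microglia markers were detected. They summed to 5590 to 7120 CPM in control LPS libraries and 13700 to 18700 CPM in control saline libraries, and P2ry12, the gene of a sorting antigen, averaged 188 CPM in control LPS libraries and 1974 CPM in control saline libraries. In bulk samples, fewer cells of a type and less RNA per cell cannot be told apart.

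The sequence feature that divides the family is the ITIM, searched as codons for isoleucine, leucine, valine or serine, any residue, tyrosine, any pair of residues, then isoleucine, leucine or valine. In the last 200 codons of the coding sequences (GENCODE M21, GRCm38), Lilrb4a held 2 matches, Pirb 3 and Pilra 1. Pilrb1, Pilrb2, Pira2, Lilra5 and Lilr4b held 0. The 6 matches are shown with flanking codons, 5′ to 3′ on the coding strand, with the tyrosine codon in capitals. The codon number is that of the first codon of the match, which comes after the flanking codons before it.
Lilrb4a, chromosome 10, from codon 298: cagggaattgtcTACgcccaggtaaaaccc
Lilrb4a, chromosome 10, from codon 320: caggatgtaaccTATgcccagttgtgcatc
Pirb, chromosome 7, from codon 711: gaagaaagcctaTATgcttcagtggaggac
Pirb, chromosome 7, from codon 792: caggatgtgaccTATgcccagctgtgcagc
Pirb, chromosome 7, from codon 822: gagcccagtgtaTATgctactctggcggct
Pilra, chromosome 5, from codon 265: aataacatcgtgTATgcttccatctccctc
The coding sequences of Lilr4b (912 bases) and Lilrb4a (1008 bases) were 96.0% identical over the 910 aligned bases, yet Lilr4b has 303 codons, 32 fewer than Lilrb4a, and no match. The end of its coding sequence, with the stop codon in capitals, holds a run of 13 bases that is also in the first Lilrb4a motif shown, and there the letters of the tyrosine codon lie 2 bases off the codon boundary.
Lilr4b, chromosome 10: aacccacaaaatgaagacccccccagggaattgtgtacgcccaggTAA
Pilrb1 and Pilrb2 (678 coding bases each) were 93.5% identical to each other and 87.0% and 86.9% identical to Pilra over the aligned bases. Pira2 (2043 bases) was 95.7% identical to Pirb (2526 bases) over its whole length.

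After LPS, 7 of the 8 members rose in control offspring and the same 7 rose in MIA offspring, while Lilra5 fell in both. Called means an adjusted p under 0.05 in edgeR's quasi-likelihood test over 14741 genes. That test called 44.6% of all genes in control offspring (23.3% higher, 21.3% lower) and 39.1% in MIA offspring (20.8% higher, 18.3% lower), so calls were common in both directions. Pilrb1, Pilrb2 and Pira2 passed the filter on low counts only through the LPS libraries (0 of 11 saline libraries reached its level of 0.733 CPM), so a difference was built into their selection. Among the 5 members that saline libraries also carried past the filter, 4 rose and 1 fell in each maternal group. Their median log2 fold change was 3.13 in control and in MIA offspring, against -0.00324 and 0.0176 over all genes tested.

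**Figure D1:**
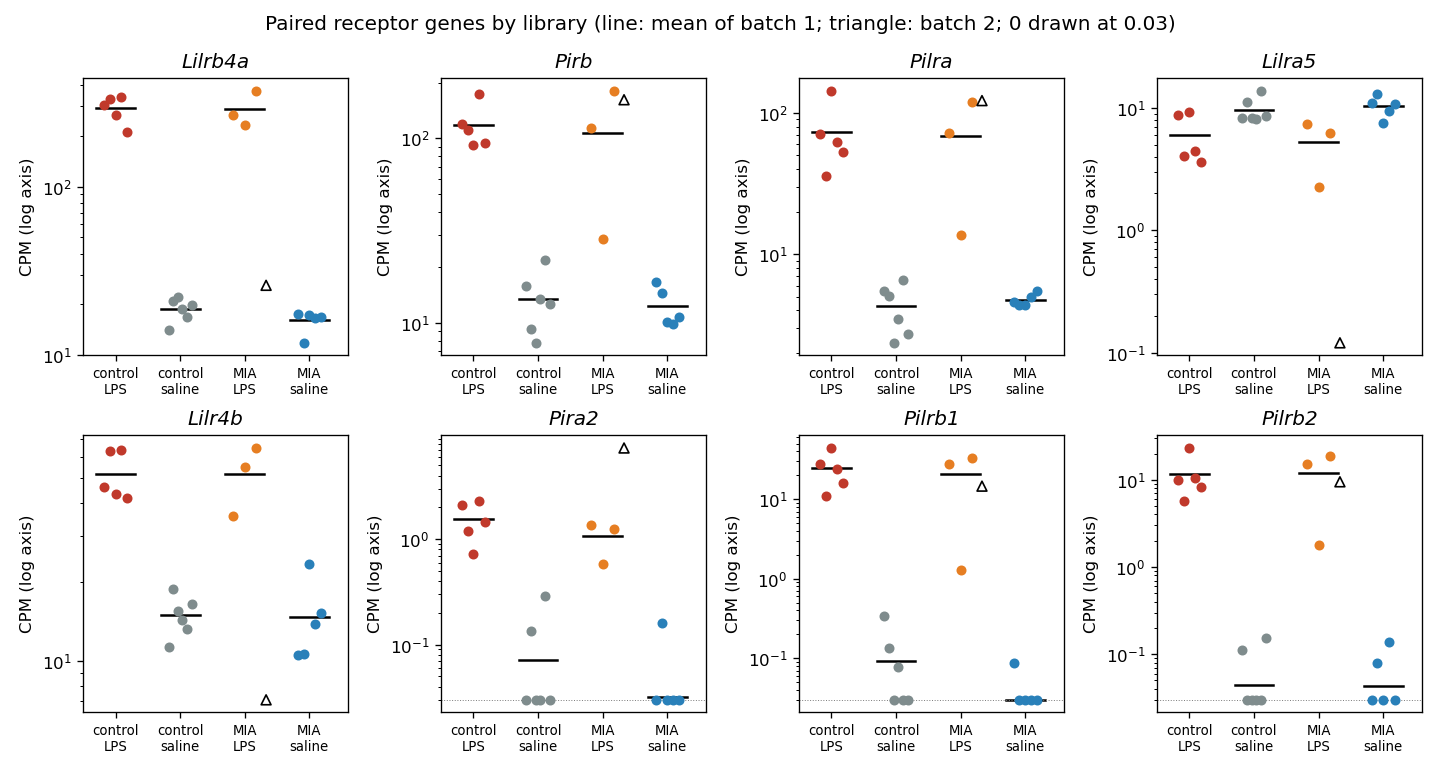
Scaled counts (CPM, log axis) of the 8 members in each library, by group. Points are libraries of batch 1, lines their mean, the triangle is the batch 2 library, and values of 0, with the Pilrb1 mean of MIA saline libraries, are drawn at the dotted line. The LPS mean lies above the saline mean in each maternal group for every member except Lilra5, whose LPS libraries lie low. Pilrb1, Pilrb2 and Pira2 passed the filter on low counts only through the LPS libraries.

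Among the inhibitory receptors, Lilrb4a (chr10:51490956-51496611, plus strand), encoding gp49B, had 306, 333, 266, 341 and 211 CPM in control LPS libraries, against a lowest value of 14.0, a median of 19.3 and a highest value of 22.0 CPM in 6 control saline libraries. In MIA offspring it had 266, 232 and 370 CPM after LPS and 17.6, 11.8, 17.2, 16.7 and 16.9 CPM after saline. In batch 1, the lowest LPS library of either maternal group stood well above the highest saline library. The log2 fold change was 3.96 ± 0.16 (SE) in control offspring (15.6-fold, edgeR adjusted p = 7.89e-16) and 4.17 ± 0.18 in MIA offspring (18.0-fold, edgeR adjusted p = 1.6e-14), where it was 4.31 without MIA LPS replicate 2. Within batch 1, the SDs were 53.5 CPM around a mean of 291 CPM in control LPS libraries and 2.92 CPM around 18.7 CPM in control saline libraries. In the batch 2 library, also MIA LPS, it had 25.9 CPM, below every other LPS library and above every saline library.

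Pirb (chr7:3711409-3720391, minus strand) had 119, 112, 92.0, 174 and 94.2 CPM in control LPS libraries, against 7.78 to 21.8 CPM (median 13.1) in control saline libraries. In MIA offspring, 113, 28.6 and 181 CPM after LPS stood against 16.6, 14.5, 10.1, 9.84 and 10.7 CPM after saline. The groups did not overlap, but MIA LPS replicate 2 came close to the saline range. The test gave a log2 fold change of 3.13 ± 0.37 in control offspring (8.74-fold, edgeR adjusted p = 2.12e-06) and 3.13 ± 0.43 in MIA offspring (8.73-fold, edgeR adjusted p = 1.5e-05). Without MIA LPS replicate 2, the value in MIA offspring was 3.58 (edgeR adjusted p = 4.68e-08), and without MIA LPS replicate 3 it was 2.53. Its 162 CPM in the batch 2 library lay within the range of the other LPS libraries.

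Pilra (chr5:137821952-137836281, minus strand) had 70.9, 36.01, 143, 62.7 and 52.5 CPM in control LPS libraries, against 2.36 to 6.53 CPM (median 4.27) in control saline libraries. MIA LPS libraries had 72.0, 13.7 and 119 CPM, against 4.56, 4.34, 4.39, 4.96 and 5.46 CPM in MIA saline libraries. Every LPS library was above every saline library, and the LPS libraries spread widely among themselves. On the log2 scale the fold change was 4.07 ± 0.47 in control offspring (edgeR adjusted p = 2.2e-06) and 3.84 ± 0.54 in MIA offspring (edgeR adjusted p = 2.32e-05). Without MIA LPS replicate 2, the value in MIA offspring was 4.33 (edgeR adjusted p = 4.22e-07), and without MIA LPS replicate 3 it was 3.17. In the batch 2 library Pilra had 122 CPM.

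The activating partners of Pilra, Pilrb1 (chr5:137852147-137858106, minus strand) and Pilrb2 (chr5:137865827-137871815, minus strand), were close to undetected after saline. Pilrb1 had 28.1, 11.1, 44.2, 24.1 and 16.3 CPM in control LPS libraries, against 0 to 0.339 CPM in control saline libraries, where 9 counts were seen in all. It had 27.8, 1.30 and 33.02 CPM in MIA LPS libraries, against 1 count over the 5 MIA saline libraries. The ratio of summed CPM was 235 (95% counting interval 124 to 515) in control offspring and 1420 (253 to 56000) in MIA offspring. Those intervals cover counting error only, and the width of the second shows how little a single saline count can say about size. Its log2 fold change was 7.83 ± 0.84 in control offspring (edgeR adjusted p = 6.69e-07) and 9.78 ± 1.19 in MIA offspring (edgeR adjusted p = 4.07e-06), and both depend on the prior count that the fit adds.

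Pilrb2 followed the same pattern at lower counts, with 9.86, 5.65, 23.2, 10.6 and 8.25 CPM in control LPS libraries, against 4 counts over the 6 control saline libraries. MIA LPS libraries had 15.1, 1.81 and 18.6 CPM, against 3 counts over the MIA saline libraries. The ratio of summed CPM was 238 (95% counting interval 92.4 to 874) in control offspring and 270 (91.9 to 1320) in MIA offspring. The test gave log2 fold changes of 7.74 ± 0.73 (edgeR adjusted p = 2.16e-08) in control offspring and 7.81 ± 0.84 (edgeR adjusted p = 2.04e-07) in MIA offspring. Without MIA LPS replicate 2, the MIA values were 10.33 for Pilrb1 (edgeR adjusted p = 3.15e-10) and 8.32 for Pilrb2 (edgeR adjusted p = 1.12e-10). The batch 2 library had 14.6 CPM of Pilrb1 and 9.48 CPM of Pilrb2. Pilra, Pilrb1 and Pilrb2 were all highest in replicate 3 and lowest in replicate 2 of the control LPS libraries, whereas Pirb was lowest in replicate 3.

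Because the 3 PILR genes moved together, their promoter windows from RefSeq (GRCm38.p6, 250 bases before to 50 bases after the start site) are shown for the minus strand, 5′ to 3′. Capitals mark the core of the interferon-stimulated response element (ISRE), searched as GAAA, any pair of bases, then GAAA, and in Pilra also the core GAGGAA of PU.1, the factor that defines myeloid cells. Both strands were searched, and the patterns do not overlap each other in these windows.
Pilra, chr5:137836229-137836528: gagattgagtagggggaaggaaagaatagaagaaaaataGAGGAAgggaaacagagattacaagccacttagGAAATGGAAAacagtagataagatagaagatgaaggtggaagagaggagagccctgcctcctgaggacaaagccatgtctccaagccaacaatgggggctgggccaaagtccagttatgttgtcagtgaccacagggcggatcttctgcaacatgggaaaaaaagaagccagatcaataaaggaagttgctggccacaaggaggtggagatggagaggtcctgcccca
Pilrb1, chr5:137858000-137858299: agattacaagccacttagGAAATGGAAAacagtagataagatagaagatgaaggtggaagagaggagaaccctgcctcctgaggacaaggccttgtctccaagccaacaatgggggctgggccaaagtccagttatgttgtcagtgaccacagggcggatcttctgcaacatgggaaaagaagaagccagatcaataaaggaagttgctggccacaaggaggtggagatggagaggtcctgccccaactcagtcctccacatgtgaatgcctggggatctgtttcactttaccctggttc
Pilrb2, chr5:137871709-137872008: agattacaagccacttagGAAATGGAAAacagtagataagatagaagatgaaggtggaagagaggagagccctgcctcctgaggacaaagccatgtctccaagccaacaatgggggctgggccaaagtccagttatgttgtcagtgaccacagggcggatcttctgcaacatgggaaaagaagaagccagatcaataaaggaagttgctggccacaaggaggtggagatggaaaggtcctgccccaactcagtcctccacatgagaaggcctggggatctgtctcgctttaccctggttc
Over 246 aligned bases the Pilra window was 98.4% identical to that of Pilrb1 and 99.2% identical to that of Pilrb2, and Pilrb1 and Pilrb2 were 97.3% identical over 300 bases. All 3 held the ISRE core as GAAATGGAAA, at -178 in Pilra and at -232 in both Pilrb genes relative to their annotated start sites. Such a match was found in 3.44% of 32851 promoter windows. Control saline libraries had 9.76 ± 3.56 TPM (transcript level per length) for Pilra, 0.337 ± 0.489 TPM for Pilrb1 and 0.165 ± 0.261 TPM for Pilrb2 (SD, n = 6). Whether the windows bear on these levels was not tested. A letter match is a description and shows no binding.

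Pira2 (chr7:3836812-3845051, minus strand), an activating PIR-A gene, had 2.11, 1.20, 0.727, 2.28 and 1.44 CPM in control LPS libraries, against 7 counts over the 6 control saline libraries (0 to 0.291 CPM). It had 1.35, 0.579 and 1.26 CPM in MIA LPS libraries, against 2 counts over the MIA saline libraries. The ratio of summed CPM was 21.1 (95% counting interval 9.91 to 53.6) in control offspring and 35.9 (9.36 to 306) in MIA offspring. The log2 fold change was 4.21 ± 0.72 in control offspring (edgeR adjusted p = 2.89e-05) and 4.79 ± 0.96 in MIA offspring (edgeR adjusted p = 0.000261), where it was 5.09 without MIA LPS replicate 2. With 7.32 CPM, the batch 2 library held more than any other library. Lilra6, the family row below the count minimum, was not tested and had 0.241 to 1.08 CPM in control LPS libraries (40 counts), against 0 counts in all 6 control saline libraries, and the 95% counting interval of the ratio starts at 12.9. In MIA offspring it had 0.338, 0 and 0.660 CPM after LPS (14 counts), against 1 count after saline, and 0 in the batch 2 library.

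Pira2 counts are uncertain, because 88.3% of its 75-base stretches occur in other genes, 76.2% in Gm15922, a polymorphic pseudogene beside Pirb. Gm15922 averaged 6.06 ± 2.07 CPM in control LPS libraries and 0.177 ± 0.273 CPM in control saline libraries (SD, n = 5 and n = 6). Pirb shared 26% of its stretches, Pilrb1 11.2%, Pilrb2 10.2%, Pilra 2.47% and Lilra5 0%. With the PIR rows of chromosome 7 summed (Pirb, Pira2, Lilra6, Gm14548, Gm15448 and Gm15922), the log2 fold change after LPS was 3.21 ± 0.36 in control offspring (edgeR adjusted p = 9.11e-07) and 3.16 ± 0.41 in MIA offspring (edgeR adjusted p = 7.92e-06). Pirb made up at least 98.1% of the Pirb and Pira2 counts in every library of batch 1. The Pirb and Pira2 promoter windows were 97.1% identical over 272 aligned bases and each held 3 PU.1 cores, a pattern present at least once in 28.3% of all windows. The Pirb window (minus strand, cores in capitals on either strand) is shown as the PIR example.
Pirb, chr7:3720333-3720632: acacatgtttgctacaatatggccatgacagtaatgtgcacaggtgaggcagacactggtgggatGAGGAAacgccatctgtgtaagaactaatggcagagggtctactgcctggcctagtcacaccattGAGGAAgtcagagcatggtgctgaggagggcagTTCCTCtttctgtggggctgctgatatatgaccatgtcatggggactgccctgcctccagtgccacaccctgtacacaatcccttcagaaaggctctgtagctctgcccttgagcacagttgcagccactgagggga

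Lilra5 (chr7:4237754-4243463, plus strand), whose human counterpart is an activating receptor that pairs with FcR-gamma, was the member that fell. It had 8.83, 4.03, 9.35, 4.42 and 3.61 CPM in control LPS libraries, against 8.06 to 13.8 CPM (median 8.43) in control saline libraries. MIA LPS libraries had 7.44, 2.24 and 6.21 CPM, against 11.0, 13.1, 7.49, 9.43 and 10.9 CPM in MIA saline libraries. The control groups overlapped, with 2 of 5 LPS libraries inside the saline range, whereas in MIA offspring each LPS library lay below each saline library by as little as 7.44 against 7.49 CPM. The log2 fold change was -0.69 ± 0.28 in control offspring (edgeR adjusted p = 0.0456) and -0.97 ± 0.34 in MIA offspring (edgeR adjusted p = 0.0266). The control call was lost in 11 of 33 alternatives, and the MIA call in 4 of 33, among them the fit without MIA LPS replicate 2 (-0.60, edgeR adjusted p = 0.151). Lilra5 was at 0.120 CPM in the batch 2 library.

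The Lilra5 promoter window (plus strand) held no ISRE core and 1 PU.1 core, in capitals as its reverse complement.
Lilra5, chr7:4237504-4237803: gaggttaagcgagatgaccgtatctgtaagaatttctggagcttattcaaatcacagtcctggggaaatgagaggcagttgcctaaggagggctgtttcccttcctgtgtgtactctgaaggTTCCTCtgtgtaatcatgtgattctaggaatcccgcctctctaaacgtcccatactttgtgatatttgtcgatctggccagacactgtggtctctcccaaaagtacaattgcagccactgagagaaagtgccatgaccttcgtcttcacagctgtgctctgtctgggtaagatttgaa
No window of a member held a match to the NF-kB pattern, which was found in 4.51% of all windows. The absence says only that those letters are not within this stretch. Windows were at hand for 7 of the 8 members, without Lilrb4a, and that of Lilr4b held none of the 3 patterns.

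Lilr4b (chr10:51480632-51486703, plus strand), encoding gp49A and lying just before Lilrb4a, had 45.9, 63.4, 43.4, 63.9 and 41.7 CPM in control LPS libraries, against 11.2 to 18.7 CPM (median 14.9) in control saline libraries. MIA LPS libraries had 35.8, 54.7 and 64.8 CPM, against 10.5, 10.6, 23.4, 13.8 and 15.3 CPM in MIA saline libraries. The groups did not overlap, and the distance was smaller than for its neighbour. The log2 fold change was 1.80 ± 0.19 in control offspring (3.47-fold, edgeR adjusted p = 4.48e-08) and 1.81 ± 0.23 in MIA offspring (3.51-fold, edgeR adjusted p = 6.66e-07), where it was 1.77 without MIA LPS replicate 2. Its 7.08 CPM in the batch 2 library lay below every saline library.

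Lilrb4a took 83.5 to 86.9% of the counts of this gene pair in control LPS libraries and 52.8 to 58.7% in control saline libraries, and 80.9 to 88.1% in MIA LPS libraries and 42.4 to 62.8% in MIA saline libraries. Within the PILR genes the inhibitory share went the other way. Pilra held 64.4 to 68.3% of the PILR counts in control LPS libraries and 92.4 to 100% in control saline libraries, and 62.7 to 81.4% in MIA LPS libraries and 97.3 to 100% in MIA saline libraries. These shares are of counts, not of molecules per length.

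Another row overlaps this locus. Gm49339 (chr10:51480612-51496613, annotated as protein-coding) spans both genes, and 32.2% of the 75-base stretches of Lilrb4a occur in it. Gm49339 averaged 132 ± 22.7 CPM in control LPS libraries and 0.645 ± 0.488 CPM in control saline libraries (SD, n = 5 and n = 6), and its log2 fold change was 7.61 ± 0.54 (edgeR adjusted p = 3.83e-09). In MIA offspring it averaged 110 ± 54.6 CPM after LPS (n = 3) and 0.882 ± 0.867 CPM after saline (n = 5). The sources used here do not say how the counting divided reads among the 3 rows, and the division between Lilrb4a and Lilr4b is uncertain. The 3 rows summed had 475 ± 79.9 CPM in control LPS libraries and 34.2 ± 5.05 CPM in control saline libraries, a log2 fold change of 3.79 ± 0.17 (edgeR adjusted p = 5.23e-15), and 451 ± 136 CPM in MIA LPS libraries and 31.6 ± 7.14 CPM in MIA saline libraries, a log2 fold change of 3.83 ± 0.20 (edgeR adjusted p = 1.14e-13). Summed this way, the batch 2 library had 142 CPM, above every saline library and below the lowest other LPS library (349 CPM).

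**Figure D2:**
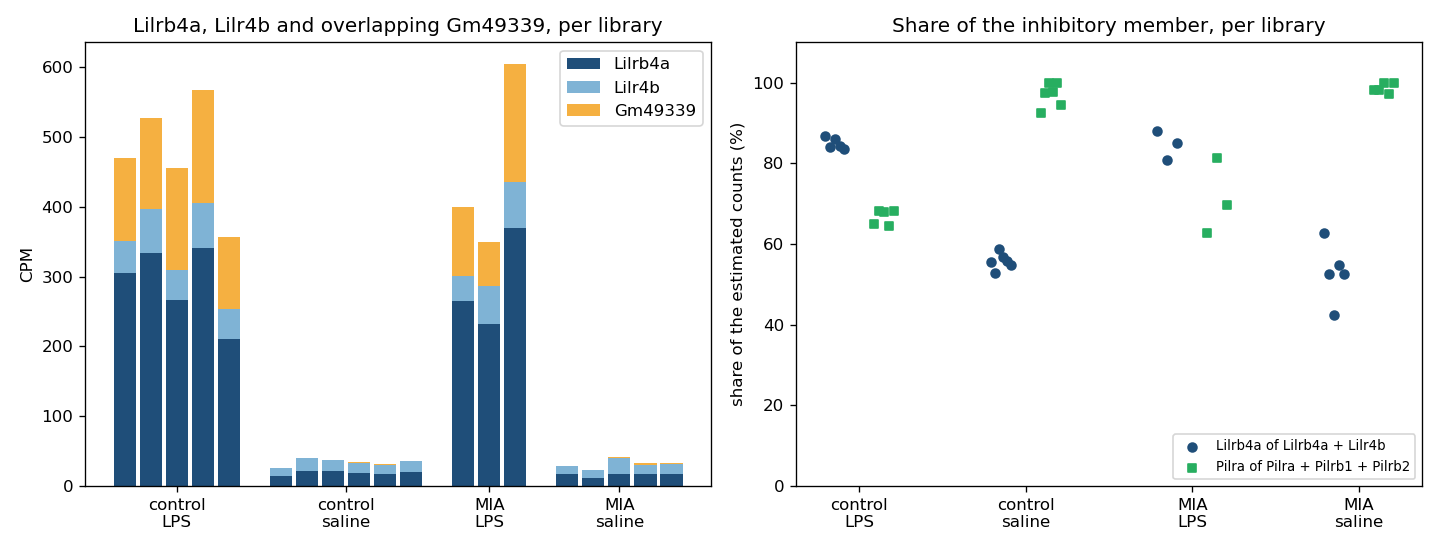
Left, stacked CPM of Lilrb4a, Lilr4b and Gm49339, the row that spans both, in each library of batch 1. Right, the percentage of counts held by Lilrb4a within Lilrb4a and Lilr4b (circles) and by Pilra within the PILR genes (squares). The locus sum is 349 to 605 CPM after LPS and 22.4 to 41.8 CPM after saline; the Lilrb4a share is higher and the Pilra share lower after LPS.

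Levels of different genes are compared per length, as TPM from the union of annotated exons. After LPS, control libraries had Lilrb4a first at 358 ± 70.1 TPM, then Pirb at 169 ± 45.0, Pilra at 148 ± 76.1, Pilrb1 at 79.3 ± 36.9, Lilr4b at 61.2 ± 15.0, Pilrb2 at 36.9 ± 20, Lilra5 at 18.1 ± 7.43 and Pira2 at 2.87 ± 1.12 TPM (SD, n = 5). The ranges over libraries did not overlap between Lilrb4a and Pirb or between Lilra5 and Pira2, and those of all other neighbours in this order did. MIA offspring after LPS kept this order (332 ± 71.1 TPM for Lilrb4a, n = 3). After saline, control libraries had Lilra5 first at 32.7 ± 6.88 TPM, then Lilrb4a at 25.7 ± 5.32, Pirb at 21.1 ± 6.59, Lilr4b at 19.7 ± 4.4 and Pilra at 9.76 ± 3.56 TPM (SD, n = 6), with Pilrb1, Pilrb2 and Pira2 each below 1 TPM on average. Neighbours among the first 4 overlapped in range, as did the last 3. After saline, MIA offspring had Lilra5 at 33.7 ± 4.69 TPM, above Lilrb4a at 21.4 ± 4.53 TPM without overlap by this length (n = 5). With the length of the longest transcript instead, Lilra5 averaged 26.1 TPM in MIA saline and 25.2 TPM in control saline libraries. Lilrb4a then averaged 23.0 TPM in MIA saline and 27.5 TPM in control saline libraries. The first place in control saline libraries and the size of the gap in MIA saline libraries thus depend on the length used. Lilrb4a ranked 347 of 23124 detected named genes in control LPS libraries and 5174 of 23371 in control saline libraries.

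**Figure D3:**
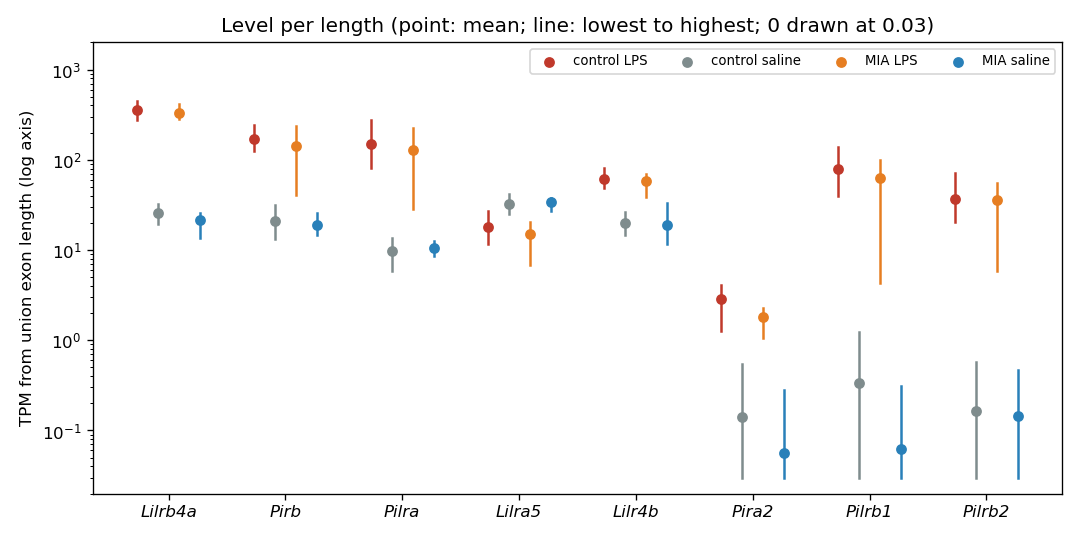
Level per length (TPM, log axis) of each member in the 4 groups, batch 1 libraries. Points are means and lines run from the lowest to the highest library, with 0 drawn at the foot of the axis. Lilrb4a reaches 358 TPM in control LPS libraries, whereas Lilra5, at 32.7 TPM, has the highest mean in control saline libraries.

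The maternal treatment was tested as the difference between the LPS responses, MIA minus control, and directly after saline and after LPS. For all 3 tests, 0% of the 14741 genes were called by edgeR (491, 415 and 825 genes had an unadjusted p under 0.05), and 0 of the 8 members had an unadjusted p under 0.05. DESeq2 called 0, 6 and 0 genes, with 0 members among them, and limma-voom called 0 in each. For Lilrb4a the difference of responses was 0.21 on the log2 scale with a 95% interval of -0.27 to 0.69, and for Lilr4b it was 0.02 (-0.61 to 0.64). The intervals were wider for Lilra5 (-0.28, from -1.18 to 0.61), Pirb (0.00, from -1.27 to 1.27) and Pilra (-0.23, from -1.72 to 1.26). Pira2 (0.58, from -1.71 to 2.86), Pilrb2 (0.06, from -3.86 to 3.99) and Pilrb1 (1.94, from -3.25 to 7.13) could not be placed within a narrow range, with few saline counts behind them. Without MIA LPS replicate 2, the difference was 0.35 for Lilrb4a, 0.45 for Pirb and 0.26 for Pilra, and without MIA LPS replicate 3 it was -0.01 for Lilrb4a, -0.60 for Pirb and -0.90 for Pilra, with 0 of these called.

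After LPS, Lilrb4a averaged 289 ± 72.1 CPM in MIA offspring and 291 ± 53.5 CPM in control offspring (SD, n = 3 and n = 5), a log2 difference of -0.01 with a 95% interval of -0.37 to 0.35. After saline it averaged 16.0 ± 2.39 CPM in MIA offspring and 18.7 ± 2.92 CPM in control offspring (n = 5 and n = 6), a log2 difference of -0.22 (-0.54 to 0.10). Pirb after LPS averaged 108 ± 76.2 CPM in MIA offspring and 118 ± 33.3 CPM in control offspring, a log2 difference of -0.14 (-1.02 to 0.75). Pilra after LPS averaged 68.1 ± 52.6 CPM in MIA offspring and 72.9 ± 41.1 CPM in control offspring, a log2 difference of -0.09 (-1.16 to 0.97). The sign of these differences turned with the library left out: without MIA LPS replicate 2 they were 0.32 for Pirb, 0.39 for Pilra and 0.13 for Lilrb4a, and without MIA LPS replicate 3 they were -0.74, -0.77 and -0.23 in the same order. For each member the MIA and control ranges overlapped both after LPS and after saline. The comparisons share libraries and are not independent of each other.

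**Figure D4:**
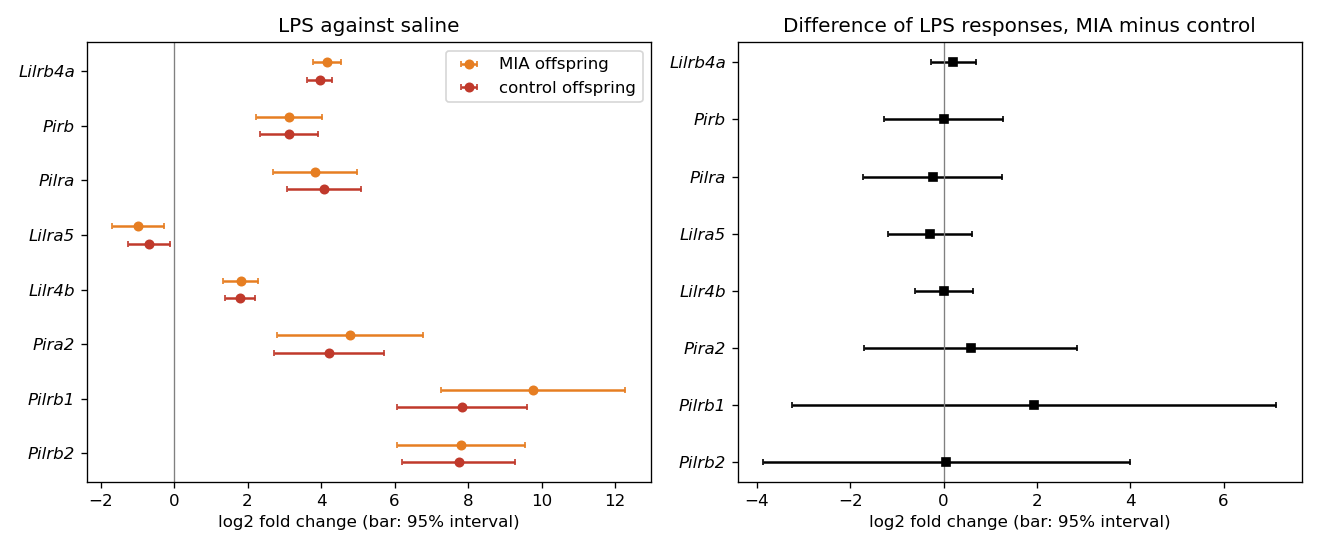
Left, log2 fold change of LPS against saline for each member in MIA and control offspring; right, the MIA minus control difference of those responses. Points are edgeR estimates and bars 95% intervals. On the left 7 members lie above 0 in both maternal groups, and on the right every interval includes 0.

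The partners and ligands of these receptors were read from 3 lists. Among 12 adaptors and kinases near activating receptors, 6 rose and 0 fell in control offspring, and 7 rose and 0 fell in MIA offspring, with median log2 fold changes of 0.43 and 0.50. Called genes made up 50% and 58.3% of this list, against 44.6% and 39.1% of all genes. Fcer1g, the FcR-gamma adaptor, averaged 657 CPM in control LPS libraries and 402 CPM in control saline libraries, a log2 fold change of 0.71 ± 0.13 (edgeR adjusted p = 5.22e-05). Tyrobp, the DAP12 adaptor of PILR-beta, averaged 353 CPM in control LPS libraries and 345 CPM in control saline libraries (log2 fold change 0.03, 95% interval -0.25 to 0.32). The Src-family kinase Fgr averaged 105 CPM in control LPS libraries and 0.771 CPM in control saline libraries (log2 fold change 7.08 ± 0.55, edgeR adjusted p = 1.75e-08). Syk, the kinase that docks on phosphorylated adaptors, had a log2 fold change of -0.06 (95% interval -0.30 to 0.19).

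Among 6 phosphatases and docking proteins of inhibitory receptors, 2 rose and 1 fell in control offspring and 2 rose and 2 fell in MIA offspring, with medians of 0.33 and 0.11. That was 50% of the list in control and 66.7% in MIA offspring, against 44.6% and 39.1% of all genes. Ptpn11, encoding SHP-2, averaged 30.6 CPM in control LPS libraries and 19.9 CPM in control saline libraries (0.62 ± 0.12, edgeR adjusted p = 0.000192). The docking protein gene Dok2 averaged 1.53 CPM in control LPS libraries and 0.0871 CPM in control saline libraries (4.13 ± 0.74, edgeR adjusted p = 5.83e-05). In both maternal groups its saline mean lay below the filter level of 0.733 CPM. It passed through LPS libraries, so a difference was built into its selection. Inpp5d, encoding the lipid phosphatase SHIP-1, averaged 364 CPM in control LPS libraries and 558 CPM in control saline libraries (-0.62 ± 0.12, edgeR adjusted p = 0.000206). Ptpn6, encoding SHP-1, had a log2 fold change of 0.41 (95% interval -0.10 to 0.93), which did not pass the test. In MIA offspring Inppl1, encoding SHIP-2, also fell (-1.02 ± 0.23, edgeR adjusted p = 0.000678). In control offspring its value was -0.40 (edgeR adjusted p = 0.0731), and the difference between the responses was not called (edgeR adjusted p = 1).

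Of 17 reported ligands, 16 were in the table and 13 were tested. In control offspring 5 rose and 4 fell, and in MIA offspring 5 rose and 3 fell, with medians of 0.27 and 0.23. The called share was 69.2% in control and 61.5% in MIA offspring, against 44.6% and 39.1% of all genes. The class I genes H2-K1, H2-D1 and B2m, whose products bind PIR-B, rose by 0.94 ± 0.14, 1.07 ± 0.16 and 0.98 ± 0.14 on the log2 scale in control offspring (edgeR adjusted p of 6.57e-06, 4.71e-06 and 1.81e-06). App, the amyloid precursor, averaged 207 CPM in control LPS libraries and 68.5 CPM in control saline libraries (1.60 ± 0.13, edgeR adjusted p = 2.06e-10). Fn1, encoding fibronectin, a reported ligand of human LILRB4, averaged 36.4 CPM in control LPS libraries and 0.279 CPM in control saline libraries (7.03 ± 0.72, edgeR adjusted p = 4.46e-07). Its saline mean also lay below the filter level of 0.733 CPM, so its selection leaned on the LPS libraries. Rtn4, encoding the nerve growth inhibitor Nogo, fell by 0.36 on the log2 scale (SE 0.12, edgeR adjusted p = 0.0155), and Itgav, a subunit of the integrin bound by gp49B, fell by 0.86 (SE 0.12, edgeR adjusted p = 2.4e-06). Rtn4 and Itgav fell in MIA offspring too, by 0.37 and 0.85. In none of the 3 tests of the maternal treatment was a gene of the 3 lists called by edgeR.

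**Figure D5:**
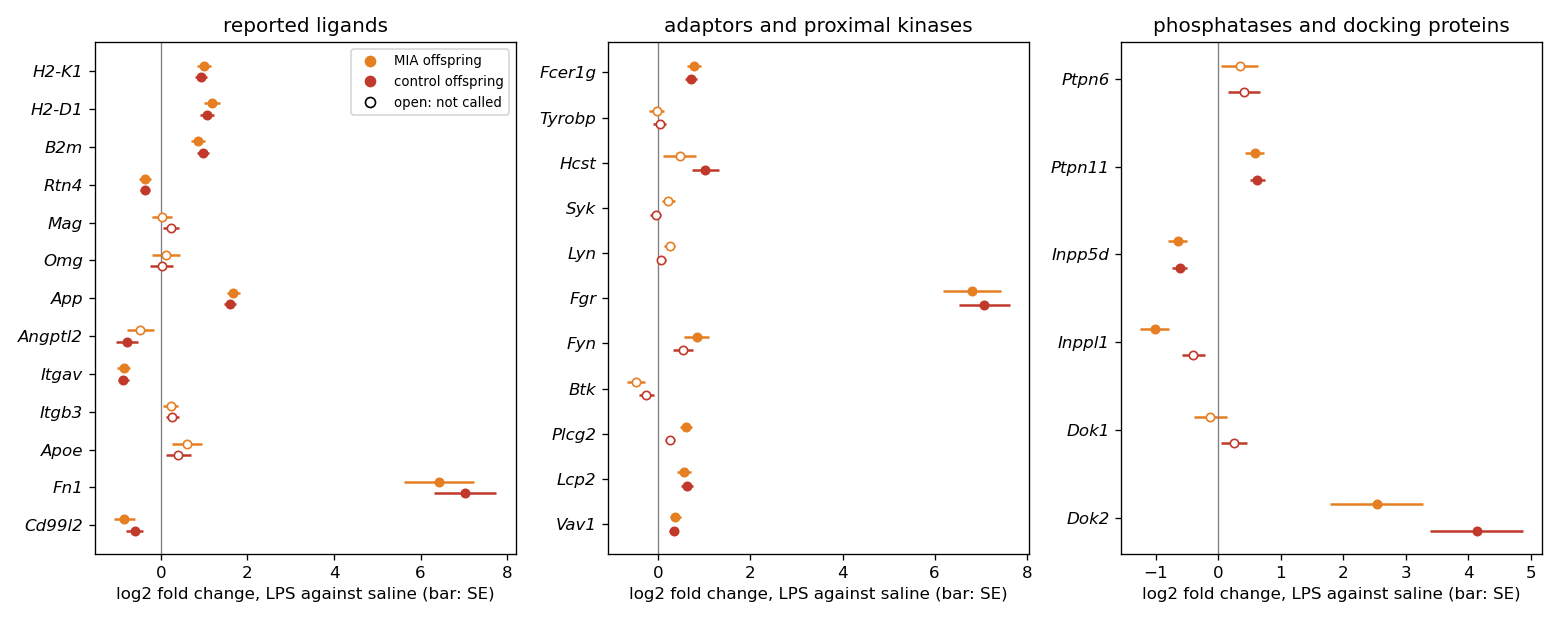
Log2 fold change of LPS against saline for tested ligands, adaptors and kinases (11 of the 12), and phosphatases and docking proteins, in MIA and control offspring. Points are edgeR estimates, bars are SEs, and open points did not pass an adjusted p of 0.05. Fgr and Fn1 lie near 7, most others between -1 and 2.

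The genes whose 4 group means lay nearest to those of Lilrb4a, by root mean square distance of centred log2 CPM among 6949 genes, were Ifi209 (0.0558), Slfn2 (0.0629), Klf9 (0.0799), Ripor2 (0.0810) and Ms4a6d (0.0856). For Ifi209, an interferon-inducible gene, mean log2 CPM was 5.78 in control LPS libraries and 1.97 in control saline libraries, and 5.90 in MIA LPS libraries and 1.73 in MIA saline libraries. Lilrb4a had 8.17 and 4.22 in the control groups and 8.15 and 4.00 in the MIA groups, in the same order. Likeness over 4 means is a description.

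Markers of other myeloid cells changed in both directions after LPS. Median neutrophil and border-associated macrophage sums were lower after LPS than after saline in both maternal groups. After saline the neutrophil sum was mostly Csf3r, which fell after LPS while most other tested neutrophil markers rose. The median monocyte sum was higher, and for all of these sums the LPS and saline ranges overlapped. Of 7 monocyte markers, 5 rose and 1 fell in each maternal group. That was 85.7% of the list, against 44.6% of all genes in control and 39.1% in MIA offspring. The monocyte sum was 52.4 to 85.9 CPM in control LPS libraries and 34.9 to 79.6 CPM in control saline libraries, and 41 to 130 CPM in MIA LPS libraries and 32.4 to 55.6 CPM in MIA saline libraries. Ly6c2 and Chil3 were at 0 in MIA saline libraries. Of 11 neutrophil markers, 10 were tested, of which 7 rose and 1 fell in control offspring and 9 rose and 1 fell in MIA offspring. The called share of those tested was 80% in control and 100% in MIA offspring. S100a9 averaged 34.2 CPM in control LPS libraries and 2.04 CPM in control saline libraries. The neutrophil sum was 115 to 177 CPM in control LPS libraries and 157 to 233 CPM in control saline libraries, and 100 to 203 CPM in MIA LPS libraries and 172 to 196 CPM in MIA saline libraries. Csf3r, most of that sum after saline, fell to 71.0 CPM in control LPS libraries, against 180 CPM in control saline libraries. In MIA offspring it averaged 57.4 CPM after LPS and 184 CPM after saline. It was the only neutrophil marker called lower, so the sum does not follow the other markers. Retnlg and Mmp8 were at 0 in all saline libraries, so they passed the filter through LPS libraries only. Of 7 border-associated macrophage markers, 1 rose and 1 fell in control offspring and 1 rose and 2 fell in MIA offspring. Their called share was 28.6% in control offspring, below that of all genes, and 42.9% in MIA offspring, near that of all genes. F13a1 rose by 1.24 in control and 2.15 in MIA offspring on the log2 scale, and Mrc1 fell by 2.08 and 1.75. The border-associated macrophage sum was 16.9 to 47.1 CPM in control LPS libraries and 20.8 to 58.7 CPM in control saline libraries, and 11.9 to 35.3 CPM in MIA LPS libraries and 14.4 to 34.9 CPM in MIA saline libraries. The cells had been sorted as CD45-low and P2RY12+, and which cells carried these markers was not tested. The part of any monocytes or neutrophils in the rise of the receptors was not tested either. The 6 mast cell and basophil markers, from cells that also carry gp49 proteins, were at 0 in every library of batch 1.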

How the data were processed

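RNA of sorted striatal microglia was measured in 21 libraries (5 ng input, a modified form of Smart-Seq2, 9 cycles of PCR), per the labels' protocols. The authors deposited estimated counts per gene, not normalized, of which 6.27% were not whole, and these were rounded. The submitters' processing notes name RSEM, STAR and DESeq2, without versions, and the sources used here give no build, annotation, strand or read length. Symbols, exon lengths and coordinates came from GENCODE M21 (GRCm38), which held 55227 of 55487 identifiers without version. The main test was edgeR 4.0.16 (R 4.3.3, robust quasi-likelihood, TMM scaling) on 20 libraries, with a mean for each of the 4 groups and a batch term, leaving 15 residual degrees of freedom. Low counts were filtered with edgeR (minimum count 10, minimum total 15), and p-values were adjusted by Benjamini-Hochberg over 14741 genes. The SE is the absolute log2 fold change over the square root of F. CPM used TMM-scaled library sizes, and TPM left out ribosomal RNA genes. Means and SDs are over batch 1 libraries. Named genes were every member, 3 fixed pathway lists and the 5 genes nearest to Lilrb4a; Gm-numbered rows that overlap or copy members were added after their values were seen. The values of 1 listed kinase and 1 listed marker are not reported here, though the list counts and sums include them. The members, lists and tests were chosen with earlier results of these data known. Replicates differed by more than sampling noise (the lowest chi-square per degree of freedom was 9.58). The edgeR fit was checked on simulated counts for the LPS response in control offspring and for the difference of responses. The simulation gave all genes the same spread and had no batch effect, and other comparisons and fits were not checked this way. Alternatives used DESeq2 1.42.0, limma 3.58.1 (voom), other scalings and filters, summed copies and left-out libraries. Shared sequence was counted as 75-base stretches of annotated transcripts, and PCR reads without molecular identifiers make counting intervals and floors cover counting error only.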

Additional observations from a re-analysis of the deposited data

Results flagged for a closer look

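Among 24 sets of a member and a group with 4 to 6 libraries, 4 held a library whose gap to the others passed Dixon's 95% limit, and chance flags about 1 set in 20. Lilrb4a had 11.8 CPM in MIA saline replicate 2, against 16.7 to 17.6 CPM in the other 4 MIA saline libraries. Pilrb2 had 23.2 CPM in control LPS replicate 3, against 5.65 to 10.6 CPM in the other 4 control LPS libraries, and Pilra and Pilrb1 were highest in that library as well. Pilrb1 in MIA saline replicate 1 (0.0877 CPM, others at 0) and Pira2 in MIA saline replicate 2 (0.161 CPM, others at 0) rest on 1 or 2 counts.

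Rows outside the members also carried signal after LPS. Gm49339, which spans Lilr4b and Lilrb4a, averaged 132 CPM in control LPS libraries against 0 to 1.4 CPM in control saline libraries. Lilra6, below the summed count minimum, averaged 0.544 CPM in control LPS libraries against 0 in every control saline library.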

How the results depend on the processing

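Each log2 fold change was recomputed under 33 alternatives. In both LPS comparisons Lilrb4a, Lilr4b, Pirb and Pilra kept their rise and call under all of them, with an adjusted p of at most 0.00257 (Lilr4b, MIA offspring). Pilrb1, Pilrb2 and Pira2 also kept theirs, with an adjusted p of at most 0.00283 (Pilrb1, control offspring). They passed the filter on low counts only through the LPS libraries, so their kept calls add no support for a rise. The log2 fold change of Lilr4b ran from 1.71 to 3.79 in control and 1.47 to 3.83 in MIA offspring, the upper ends with Lilrb4a and Gm49339 summed in, and that of Pira2 from 3.14 to 5.43 in control and 3.14 to 6.91 in MIA offspring, the lower ends being the sum of Pira2 with Pirb. Counts of called members were 5 in each LPS comparison with copies summed, and 5 with copies and overlapping genes summed, because only 5 rows then remained, all of them called. Leaving out 1 library gave 7 to 8 called members in each LPS comparison and 0 in the 3 tests of the maternal treatment.

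The calls lost were all for Lilra5. In control offspring it missed the threshold in 11 of 33 alternatives, with log2 fold changes of -0.90 to -0.55 over all of them and an adjusted p of up to 0.232 (no batch term). The libraries whose removal ended that call were control LPS replicates 2, 4 and 5 (adjusted p 0.123, 0.115 and 0.125), control saline replicates 2, 5 and 6 (0.0815, 0.108 and 0.0504) and MIA saline replicates 1, 4 and 5 (0.0531, 0.052 and 0.0526). Leaving out ribosomal RNA genes gave 0.0524. In MIA offspring the call was lost under limma-voom (0.059), without MIA saline replicate 2 (0.0568), without MIA LPS replicate 2 (0.151) and without that library and the batch 2 library (0.15). The cause was not tested.

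Same-numbered replicates did not deviate together in every pair (correlations from -0.136 to 0.222). With the replicate number as a block, 8 members were called in each LPS comparison and 0 in each test of the maternal treatment, the same counts as without it. Over all genes, 5063 were called in control offspring with no batch term, against 6580 in the fit reported. Scaling shifted the median of all genes by less than 0.1. For the difference of responses, edgeR called 2 genes without MIA LPS replicate 1 and 1 gene without control saline replicate 4, and for MIA against control offspring after LPS it called 4 genes without MIA LPS replicate 1 and 3 without replicate 3, with 0 members among them. The few saline counts limit the fold changes of Pilrb1, Pilrb2 and Pira2. Leaving out 1 library with saline counts moved Pilrb1 to 8.93 in control (without control saline replicate 1) and 11.21 in MIA offspring (without MIA saline replicate 1). It moved Pilrb2 to 8.74 in MIA (without MIA saline replicate 4) and 8.36 in control offspring (without control saline replicate 6). Pira2 moved to 6.91 in MIA (without MIA saline replicate 2) and 5.43 in control offspring (without control saline replicate 5).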

Other observations

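The batch 2 library, MIA LPS replicate 4, held counts for 12285 genes, against 18035 to 19612 in the fitted batch 1 libraries, and differed from the other LPS libraries in which receptors were high. Lilrb4a (25.9 CPM), Lilr4b (7.08 CPM) and Lilra5 (0.120 CPM) were below the range of the other LPS libraries, Pira2 (7.32 CPM) was above it, and Pirb (162 CPM), Pilra (122 CPM), Pilrb1 (14.6 CPM) and Pilrb2 (9.48 CPM) lay within it. Gm49339 had 109 CPM there. The same library had 228 CPM of S100a9, against 12.5 to 52.6 CPM in the other LPS libraries, and summed neutrophil markers of 452 CPM, against 100 to 203 CPM. Its 96.5 CPM of P2ry12 stood against 121 to 269 CPM in the other LPS libraries. With 1 library in that batch, batch and animal cannot be told apart.

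MIA LPS replicate 2 was low in Pirb (28.6 CPM), Pilra (13.7 CPM), Pilrb1 (1.30 CPM), Pilrb2 (1.81 CPM) and Tmem119, a microglia marker (62.7 CPM, against 140 to 256 CPM in the other LPS libraries of batch 1), but its Lilrb4a (232 CPM) and Lilr4b (54.7 CPM) lay within the range of the others. Lilra5 (2.24 CPM), Pira2 (0.579 CPM) and Gm49339 (62.7 CPM, against 98.6 to 170 CPM) were lowest there among the LPS libraries of batch 1, as was the locus sum (349 CPM, against 357 to 605 CPM). Its oligodendrocyte markers summed to 87.5 CPM and its astrocyte markers to 225 CPM, and the part of these cells in its receptor values was not tested.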
